A study of Mus musculus with 43 samples.

Results

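The 9 genes described here are genes by which B cells are usually recognised: Cd79a, Cd79b, Ms4a1, Pax5, Cd22 and the immunoglobulin constant region genes Ighd, Ighm, Igkc and Ighg3. They were chosen by name, not by their values, and each was found as 1 of the 55416 genes in the count table of every library. The libraries were RNA sequencing libraries of microglia, oligodendrocytes, oligodendrocyte precursor cells (OPCs) and astrocytes, purified from the perfused cerebral cortex of Rag2-/- mice and of their immunocompetent littermates. There were 43 libraries from 12 mice in 6 littermate pairs, namely 6 control and 6 Rag2-/- libraries each of microglia and of astrocytes, 6 control and 5 Rag2-/- libraries of OPCs and 4 of each genotype of oligodendrocytes. Both genotypes came from Rag2+/- parents of 1 colony, with the Rag2tm1.1Cgn allele crossed to C57BL/6J, and the mice, of both sexes, were 3 months old. The controls were Rag2+/- in pairs 1, 2, 3 and 5 and Rag2+/+ in pairs 4 and 6, and a control is named below by the number of its pair. The OPC library of Rag2-/- mouse 5 was not analysed here, and oligodendrocyte libraries were from pairs 1, 3, 5 and 6.

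The cells were purified by immunopanning, in which a suspension of cells passes over plates coated with antibodies. The microglia plates carried an antibody to CD45, a protein on the surface of all white blood cells, so that these plates can also bind lymphocytes and macrophages. The OPC plates carried an antibody to PDGFRα and the astrocyte plates one to HepaCAM. The oligodendrocyte plates were coated with antibody from a GalC hybridoma, which is a cultured line of fused B lineage cells that secretes 1 antibody. Plates from another hybridoma (O4) came just before them and were not sequenced. All libraries of 1 cell type were sequenced together on a lane, so cell type, plate antibody and lane cannot be told apart.

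RAG2 works with RAG1 to cut DNA beside the variable (V), diversity (D) and joining (J) segments of immunoglobulin and T cell receptor genes. Without it no V segment can be joined, no receptor is made, and B cells do not develop past an early precursor. A B cell receptor consists of 2 heavy chains, with the constant region of IgM (Ighm) or IgD (Ighd), 2 light chains, most often kappa (Igkc), and the signalling pair CD79A and CD79B. CD22 dampens its signal, CD20 (Ms4a1) is a marker of B cells from the late precursor stage on, and PAX5 is the transcription factor that commits cells to the lineage. Plasma cells secrete antibody, and IgG3 (Ighg3) is one of its classes. The constant region genes of the heavy chain can also be transcribed from their own start sites before any V segment is joined.

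The libraries held 6499417 to 23118497 gene counts (median 10447042), so that 3 counts, the most that a count of 0 allows, corresponded to 0.13 to 0.462 CPM, the counts per 1000000 gene counts of a library. These limits cover counting error only. Mitochondrial genes took 6.75% to 11.7% of the counts of microglia and 45.8% to 60.1% of those of oligodendrocytes. The 8 microglia markers examined were all higher in microglia than in the other cell types, and the 7 oligodendrocyte markers all lower. Rag2 had counts in 3 of the 22 control libraries, 4 at most, and in 0 of the 21 Rag2-/- libraries, too few to check the labels with. Iftap, which overlaps Rag2, had 14 to 208 counts in each control library and 0 to 2 in each Rag2-/- library, as the labels have it.

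Without mature B cells 8 of the 9 genes still had counts. In the 21 Rag2-/- libraries together, Ighm had 24411 counts, Ighg3 1809, Igkc 998, Ighd 923, Cd22 759, Cd79b 279, Cd79a 71 and Ms4a1 8. Pax5 had 0, against 22 counts in the controls. Ighm was counted in all 43 libraries and never with fewer than 26 counts. In Rag2-/- microglia, 5 genes had a count in every library (Ighm, Ighd, Cd22, Cd79b and Cd79a), and 4 of them, all but Cd79a, had more than 3 counts in every library. In Rag2-/- oligodendrocytes, 3 genes were above 3 counts in every library, namely Igkc, Ighg3 and Ighm. In Rag2-/- OPCs and astrocytes, only Ighm was. The genes thus fell into those found mainly in microglia, those found mainly in oligodendrocytes, and those hardly counted at all.

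**Figure D1:**
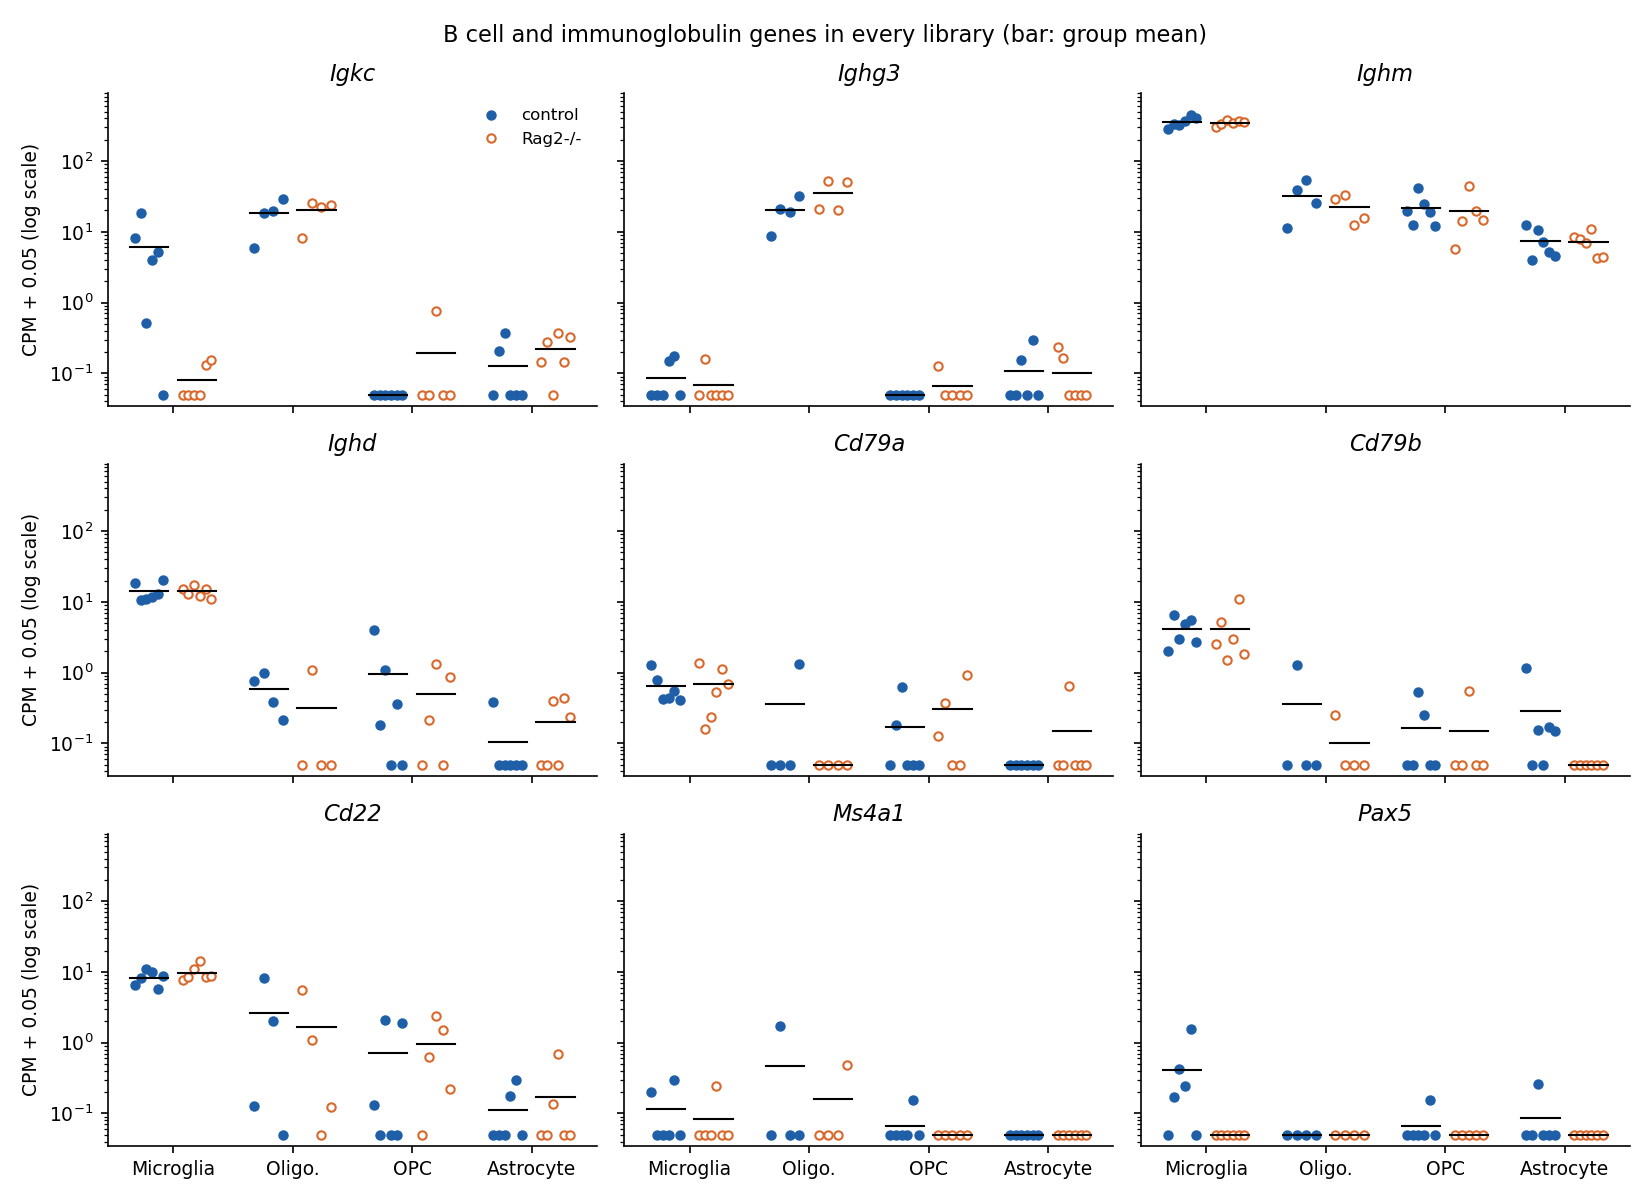
Level of each gene in every library, in CPM plus 0.05 on a log axis, by cell type, with filled points for controls, open points for Rag2-/- and a bar at the group mean. Ighm is above the other genes in microglia of both genotypes, Ighd, Cd22 and Cd79b are also highest there, Igkc is spread out in control microglia and near 0 in Rag2-/- microglia, and Igkc and Ighg3 are high in the oligodendrocyte libraries of both genotypes.

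Ighm and Ighd lie side by side on chromosome 12 and are spliced from 1 long transcript in mature B cells. On GRCm39, Ighm is at chr12:113382178-113386350 and Ighd at chr12:113370224-113379944, both on the minus strand. In control microglia, Ighm ranged from 281 to 449 CPM with a median of 347. In Rag2-/- microglia, it ranged from 298 to 382 CPM with a median of 351. The Rag2-/- values lay within the range of the controls, and the means were 357 ± 60.3 and 347 ± 28.7 CPM (SD, n = 6 each). The log2 fold change of Rag2-/- over control was -0.03 (SE 0.10, adjusted p = 0.999) by the quasi-likelihood test of edgeR, with p-values adjusted by Benjamini and Hochberg's method over all genes. The SE beside an edgeR value was worked back from the F statistic of its test and is not a standard error of the fit. In such bulk libraries, fewer cells of a type and less RNA per cell cannot be told apart. Ighd was lower by far and as even between the genotypes, at 10.53 to 19.99 CPM in controls (median 12.2) and 10.8 to 17.4 CPM in Rag2-/- (median 14.02). Its log2 fold change was 0.05 (SE 0.22).

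Cd79b, Cd22 and Cd79a followed at lower levels. Cd79b (chr11:106202167-106205588, minus strand) ranged from 2.00 to 6.54 CPM in control microglia (median 3.91) and from 1.46 to 11.02 CPM in Rag2-/- microglia (median 2.72). Rag2-/- mouse 5, with 135 counts, held 44.3% of the CPM summed over its group. Cd22 (chr7:30564827-30579767, minus strand) ranged from 5.60 to 10.9 CPM in controls (median 8.395) and from 7.58 to 14.1 CPM in Rag2-/- (median 8.60). The groups overlapped for both genes, with log2 fold changes of -0.22 (SE 0.38) for Cd79b and 0.32 (SE 0.21) for Cd22. Neither was called. Within littermate pairs, Cd22 was higher in Rag2-/- microglia in 6 of 6 pairs and Cd79b in 2 of 6. Cd79a (chr7:24596740-24601622, plus strand) was near the counting limit, with 4 to 8 counts per library in controls and 1 to 13 in Rag2-/-. It averaged 0.596 ± 0.340 and 0.632 ± 0.480 CPM (SD, n = 6 each). Of its exonic windows of 50 bases, 25.9% have a copy elsewhere in the genome, so some of its reads may not have been counted, whereas Cd79b, Ighm, Ighd, Igkc and Pax5 have none.

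Per kilobase of exon, Ighm stood far above the rest in Rag2-/- microglia, at 184 ± 15.2 CPM per kilobase (SD, n = 6). Ighd followed at 7.34 ± 1.26, Cd79b at 2.90 ± 2.52, Cd22 at 1.93 ± 0.483 and Cd79a at 0.415 ± 0.315 CPM per kilobase. Cd79b and Cd22 overlapped in their ranges, at 1.02 to 7.70 and 1.504 to 2.79 CPM per kilobase, and so did Ighd and Cd79b. Igkc (0.0587), Ighg3 (0.00714), Ms4a1 (0.00523) and Pax5 (0) came last, below any level that the counts could tell from 0.

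Igkc, the kappa light chain constant region, was the gene of the 9 that fell in Rag2-/- microglia. It is a single exon at chr6:70703419-70703950 on the plus strand, and a long noncoding RNA annotated on the opposite strand, Gm68839, covers 97.9% of it. Since it is not stated whether the counting used strand, RNA from the 2 strands cannot be told apart. In control microglia, Igkc ranged from 0 to 18.3 CPM with a median of 4.53, and control 2 held 50.8% of the summed CPM. In Rag2-/- microglia, no library exceeded 0.106 CPM. The groups nearly separated, but control 6 had 0 counts, as 4 of the 6 Rag2-/- libraries did. The mean of the controls was at least 20.2-fold higher than 3 counts per Rag2-/- library would be, and at least 11.9-fold without control 2. The fitted log2 fold change was -7.36 (SE 0.68, adjusted p = 7.51e-23), and -6.71 with the littermate pair as a block (adjusted p = 7.18e-17, edgeR). Over 19 alternatives, which included leaving out each library in turn, the adjusted p ranged from 1.97e-26 to 0.0104, the highest from DESeq2.

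Ms4a1 and Pax5 were at or near the counting limit. Ms4a1 (chr19:11227039-11243605, minus strand) had 3 counts over all 6 control microglia libraries and 2 over the Rag2-/- ones. Pax5 (chr4:44524757-44710487, minus strand) had 0, 1, 4, 2, 12 and 0 counts in controls 1 to 6 and 0 in each Rag2-/- library. Its mean in controls was at least 1.22-fold higher than 3 counts per Rag2-/- library would be, but without control 5 it was 0.137 CPM, below that limit of 0.297 CPM. It did not pass the test (adjusted p = 0.674, edgeR's quasi-likelihood test over all genes with a count). Ighg3 had at most 1 count in any microglia library. Of the exons of Pax5, 8.60% overlap 2 genes annotated on the opposite strand (Gm12462 and 5730488B01Rik), as do 11.7% of those of Cd22 (Gm72789 and Gm29439) and 8.40% of those of Cd79a (Gm72234), so their counts are uncertain to that extent.

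Of the 9 genes, 4 passed the filter on low counts in microglia (Ighm, Ighd, Cd22 and Cd79b). The edgeR test called 0 of these 4, where 0.00667% of the 15003 genes past the filter were called. Among all genes with a count, it called 1 of the 9, Igkc, where 0.0273% of 32912 genes were called. At an unadjusted p under 0.05, 2 of the 9 passed (Igkc and Pax5), as did 4.56% of all genes with a count, and DESeq2 called Igkc alone. The median log2 fold change of the 9 genes was -0.22, beside 0.01 over all genes with a count.

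Among other B lineage genes in microglia, those with the most counts were about as even between the genotypes as Ighm, and several sparse ones were at 0 in Rag2-/- as Pax5 was. Of 18 genes of the B cell surface and its signalling, 0 were called between the genotypes, with a median log2 fold change of 0.00481. Their summed level was 1140 to 1735 CPM in control and 1429 to 1809 CPM in Rag2-/- microglia. The 3 with the most counts were Cd180, a Toll-like receptor relative, at mean levels of 798 and 762 CPM, Blnk, the adaptor below the B cell receptor, at 400.03 and 398 CPM, and Cd37, a tetraspanin of leukocytes, at 221 and 245 CPM in control and Rag2-/- microglia. In contrast Blk, a kinase of B cells, Fcmr, the receptor for IgM, and Ly6d, which were singled out after their values were seen, were counted in control microglia and had 0 counts in all 6 Rag2-/- microglia libraries. Fcmr had 0, 6, 3, 4, 0 and 0 counts in controls 1 to 6. These genes were too sparse for the test, and each had an adjusted p of 0.925 in edgeR. Of 13 T cell genes, 1 was called, Cd3e, which had 8 to 39 counts in each control and 0 in each Rag2-/- microglia library, at least 7.22-fold lower. The median log2 fold change of the 13 was -2.46, beside 0.01 over all genes with a count, and 10 of the 13 had a lower fitted value in Rag2-/-. The summed level of the 13, to which Cd4, Cd5 and Cd28 gave most of the counts, was 21.2 to 51.4 CPM in control and 19.8 to 40.7 CPM in Rag2-/- microglia. Cd3e and the fitted level of most T cell genes were lower in the same libraries as Igkc, and the part of T cells in the Igkc result was not tested.

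The levels in microglia were then compared with those in the other 3 cell types of the same genotype, in 1 fit of all 43 libraries. That fit took libraries of the same mouse as independent. The fit sets the mean log level in microglia against the average of the mean log levels in the other 3, so a gene can differ from that average and still be higher in 1 of the 3. In controls, 7 of the 9 genes were higher in microglia than that average and 0 lower, where 31.6% of the 21368 genes past the filter were higher and 32.9% lower. Of all genes with a count, among which Pax5 was tested, 19.8% were higher. Ighg3 (-2.87) was not called, but control OPCs had 0 counts of it, so the fit could not decide whether it was lower. The largest log2 differences were those of Ighd at 5.22 (SE 0.69, adjusted p = 1.40e-08), Cd79b at 4.12 (SE 0.83, adjusted p = 4.84e-05) and Ighm at 4.05 (SE 0.27, adjusted p = 8.99e-17), by edgeR's quasi-likelihood test. Cd22 (3.95, SE 0.77) was close behind. Igkc (3.88, SE 0.76) was above the average, but not above oligodendrocytes. OPCs and astrocytes were near 0 for it, with 0 and 4 counts over 6 control libraries each. Its mean in controls was 5.99 CPM in microglia and 18.3 CPM in oligodendrocytes. Cd79a (2.64, SE 0.99, adjusted p = 0.0201) and Pax5 (3.45, SE 1.25, adjusted p = 0.0173) rested on few counts. Control astrocytes held 0 counts of Cd79a, control OPCs 0 of Igkc and control oligodendrocytes 0 of Pax5, so the size of these differences is uncertain. Pax5 was lost without control mouse 5 (adjusted p = 0.0525) and with the mouse as a block (adjusted p = 0.0910). Cd79a was lost without control mouse 1 (adjusted p = 0.0944) or control mouse 5 (adjusted p = 0.0527), and with DESeq2 (adjusted p = 0.127).

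In Rag2-/- mice, 5 of the 9 were higher in microglia than in the other cell types, where 31.9% of genes past the filter were higher, and 2 were lower, where 32.3% were lower. The 5 were Ighd (5.38), Ighm (4.24, SE 0.28, adjusted p = 4.53e-17), Cd22 (4.18, SE 0.78, adjusted p = 1.09e-05), Cd79b (6.495, SE 0.96, adjusted p = 3.07e-07) and Cd79a (3.00, SE 1.07, adjusted p = 0.0150), all by edgeR. Rag2-/- astrocytes held 0 counts of Cd79b and Rag2-/- oligodendrocytes 0 of Cd79a, so the size of the differences of these genes is uncertain. Cd79a was lost without Rag2-/- mouse 1 (adjusted p = 0.0721) or mouse 5 (adjusted p = 0.0515), and with DESeq2 (adjusted p = 0.0795). The 2 lower genes were Igkc (-4.63, SE 1.19, adjusted p = 0.000918) and Ighg3 (-4.12, SE 1.28, adjusted p = 0.00519). Both were near 0 in every Rag2-/- cell type but oligodendrocytes, with 2, 10 and 10 counts of Igkc and 1, 1 and 3 of Ighg3 over the microglia, OPC and astrocyte libraries, so these values set microglia apart from oligodendrocytes alone. For Igkc, the call was lost without Rag2-/- mouse 3 (-3.26), and for Ighg3 without Rag2-/- mouse 1 (-3.36). The Rag2-/- OPC libraries that were left then held 0 counts of that gene, so these 2 fits could not decide whether it was lower. The control comparison and the Rag2-/- comparison set different libraries against each other. Both came from the same fit, with a shared estimate of the spread and a shared sex term, so they are not independent.

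Ighm was also counted in every OPC, oligodendrocyte and astrocyte library. As a share of its mean level in the 12 microglia libraries, its level was 7.78% ± 4.12 in oligodendrocytes (SD, n = 8), 5.87% ± 3.44 in OPCs (n = 11) and 2.04% ± 0.824 in astrocytes (n = 12). The same share for 8 microglia markers, among them Cx3cr1, P2ry12, Tmem119 and Csf1r, as their median, averaged 3.91%, 4.61% and 1.20%. With mitochondrial genes, which took far more of the oligodendrocyte counts, left out of the library size, the Ighm share was 14.9% ± 7.20, 7.39% ± 4.18 and 2.85% ± 1.18 and the marker share 7.34%, 5.77% and 1.68%. Library by library, the Ighm share was 0.809 to 4.73 times the marker share, with a median of 1.52 over 31 libraries. On a log2 scale, the 2 shares had a Pearson correlation of 0.83 over these 31 libraries, which share 12 mice, the cell types and the library depth with both measures. Within cell types the correlation was 0.92 in 11 OPC, 0.54 in 12 astrocyte and 0.42 in 8 oligodendrocyte libraries. The Ighm levels thus moved closely with microglia markers within OPCs and only loosely within astrocytes and oligodendrocytes. What part microglia had in the Ighm levels of these libraries was not tested.

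**Figure D2:**
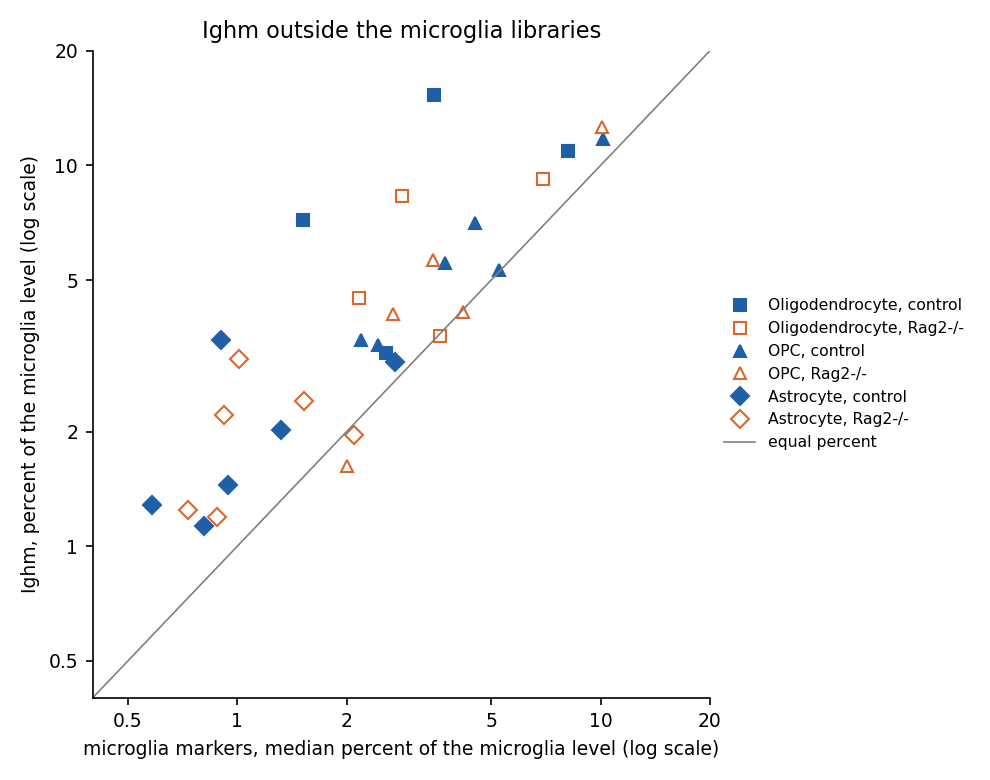
Ighm level of each oligodendrocyte, OPC and astrocyte library, in percent of the mean over 12 microglia libraries, against the median of the same percent over 8 microglia markers, both on log axes. The 31 libraries scatter along the line of equal percent, most of them above it, with a median ratio of 1.52.

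Between the genotypes, Ighm did not change detectably outside microglia. In OPCs, it ranged from 11.9 to 41.4 CPM in controls (median 19.1) and from 5.72 to 44.5 CPM in Rag2-/- (median 14.5), with a log2 fold change of 0.01 (SE 0.40). In astrocytes, it ranged from 3.99 to 12.2 CPM in controls (median 6.10) and from 4.204 to 10.9 CPM in Rag2-/- (median 7.34), with a log2 fold change of 0.21 (SE 0.29). No other gene of the 9 passed the filter in OPCs or in astrocytes. The edgeR test called 0 of 9 in OPCs, where 0.00592% of genes past the filter and 0.266% of all genes with a count were called. It called 0 of the 8 with a count in astrocytes, where 0.00679% and 0.0892% were called. At an unadjusted p under 0.05, 1 passed in OPCs (Igkc, 10 counts in Rag2-/- mouse 3 and 0 in every other OPC library) and 2 in astrocytes (Cd79a and Cd79b, each with most of its counts in 1 library), as did 5.90% and 4.98% of all genes with a count. DESeq2 called 0 in both.

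Igkc and Ighg3 were highest in the oligodendrocyte libraries, in both genotypes. Ighg3, the constant region of IgG3, lies at chr12:113319844-113324852 on the minus strand. It had 111, 221, 170 and 380 counts in the oligodendrocyte libraries of controls 1, 3, 5 and 6, and 310, 595, 220 and 679 counts in those of Rag2-/- mice 1, 3, 5 and 6. In each of the 35 other libraries it had 2 counts at most. Its mean level in oligodendrocytes was at least 60.8-fold higher in controls, and at least 131-fold higher in Rag2-/-, than 3 counts per library of the other cell types would be. Igkc had 73, 193, 179 and 352 counts in the controls and 121, 290, 244 and 321 counts in the Rag2-/- oligodendrocyte libraries, in the same order of mice. All 8 libraries of both genes were far above the OPC and astrocyte libraries, which had 10 counts of Igkc at most.

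**Figure D3:**
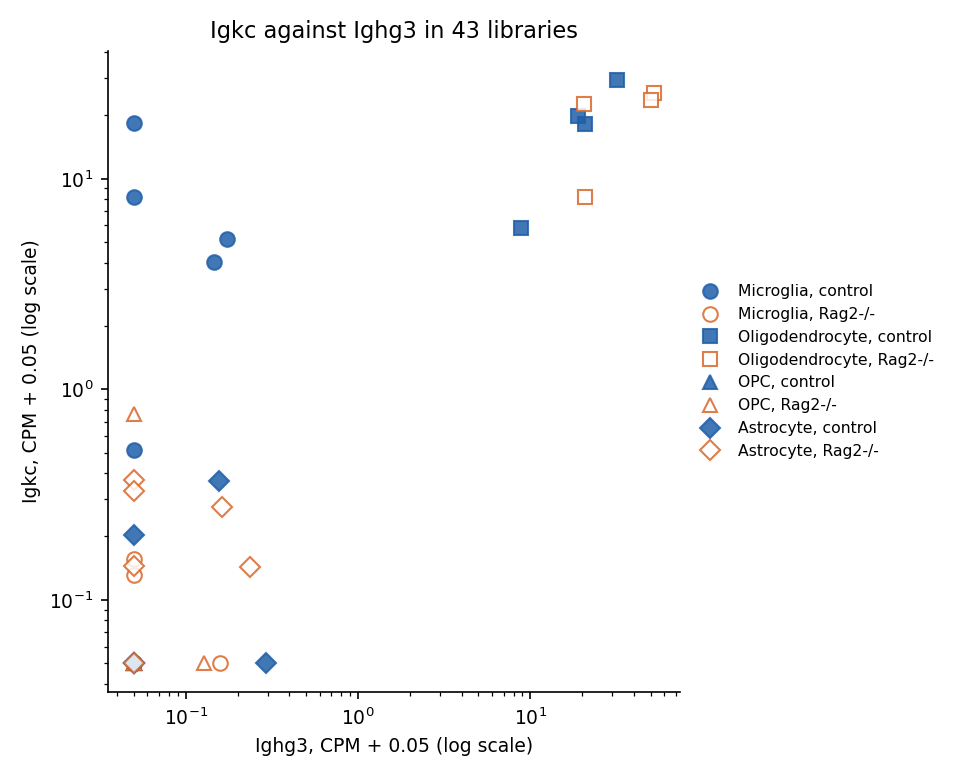
Igkc against Ighg3 in each of the 43 libraries, in CPM plus 0.05 on log axes, by cell type and genotype. The 8 oligodendrocyte libraries are high for both genes, 5 control microglia libraries hold Igkc with hardly any Ighg3, and the other libraries lie near 0 for both.

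In controls, 4 of the 9 genes were higher in oligodendrocytes than in the other cell types, where 20.9% of the genes past the filter, and 13.2% of all genes with a count, were higher. Ighg3 differed by 10.05 on the log2 scale (SE 0.46, adjusted p = 9.29e-20) and Igkc by 7.56 (SE 0.71, adjusted p = 4.74e-11), by edgeR. Control OPCs held 0 counts of both genes, so the size of these differences is uncertain. Cd22 (2.58, SE 0.85, adjusted p = 0.0151) and Ms4a1 (4.63, adjusted p = 0.00113) were called on few libraries. Cd22 had 1, 86, 18 and 0 counts and fell short with the mouse as a block (1.61, adjusted p = 0.287), without control 3 (1.57, adjusted p = 0.288) or without control 5 (adjusted p = 0.059). Ms4a1 had all its 18 counts in control 3, without which its sign turned (-1.20), and with the block its adjusted p was 0.491. In Rag2-/-, 3 of the 9 were higher, where 20.8% of the genes past the filter, and 12.4% of all genes with a count, were higher, namely Ighg3 (10.80, SE 0.46, adjusted p = 1.44e-20), Igkc (8.35, SE 0.70, adjusted p = 2.16e-12) and Ms4a1 (3.39, adjusted p = 0.0219). Ms4a1 again rested on 6 counts in 1 library, that of mouse 6, and without it the value was -0.65. With the mouse as a block, its adjusted p was 0.160, and without mouse 2, which gave no oligodendrocyte library, it was 0.0653.

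**Figure D4:**
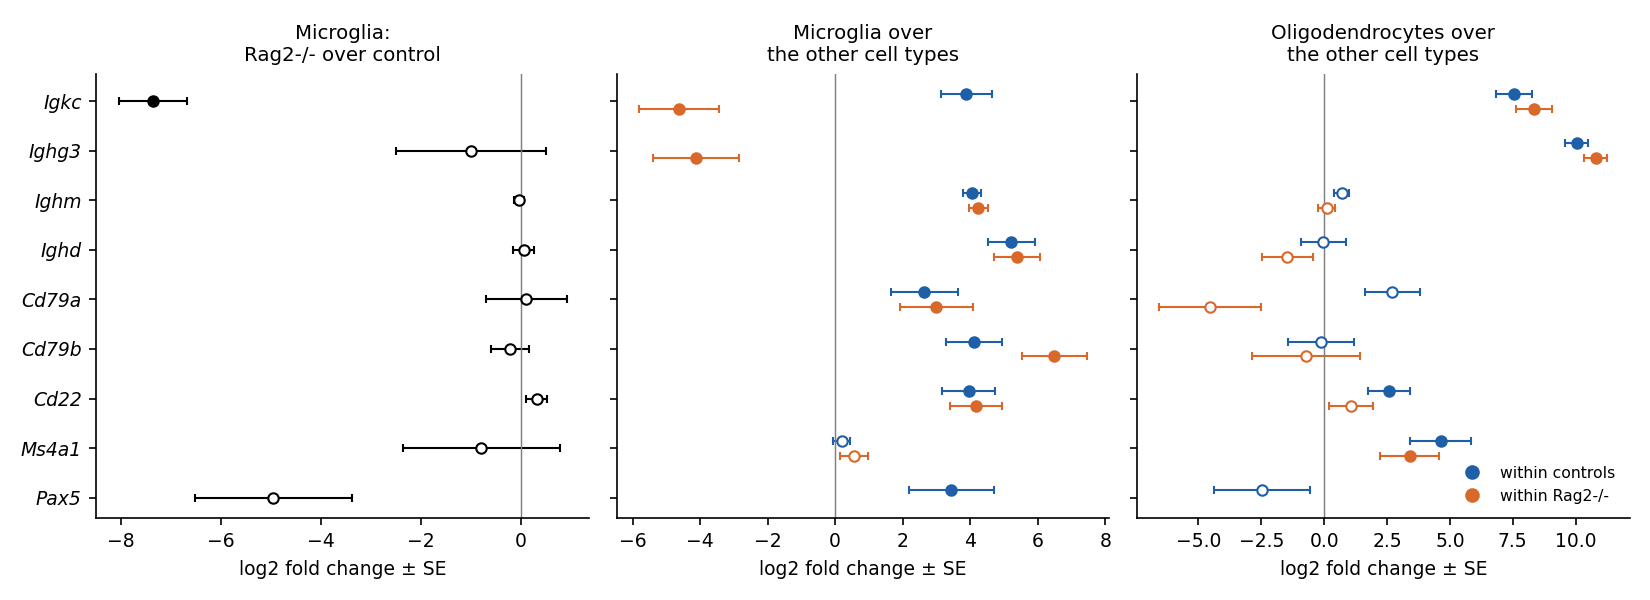
Fitted log2 fold change of the 9 genes. Bars are the SE worked back from the F statistic of the test, and filled points are genes called at an adjusted p under 0.05 by edgeR. The panels show Rag2-/- over control in microglia (left), microglia over the other cell types (middle) and oligodendrocytes over the other cell types (right). The last 2 are within controls (blue) and within Rag2-/- (orange). Igkc is the 1 filled point on the left, 5 genes are filled to the right of 0 in both genotypes in the middle panel, and Igkc and Ighg3 lie farthest to the right for oligodendrocytes; a point is left out where the fit gave no usable standard error.

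Between the genotypes, neither Igkc nor Ighg3 was called in oligodendrocytes. Igkc was 5.77, 18.2, 19.9 and 29.4 CPM in controls 1, 3, 5 and 6 and 8.10, 25.4, 22.7 and 23.6 CPM in Rag2-/- mice 1, 3, 5 and 6, higher in Rag2-/- in 3 of 4 pairs. Its log2 fold change was -0.10 (SE 0.58), and 0.24 with the littermate pair as a block. Ighg3 was 8.78, 20.8, 18.9 and 31.8 CPM in the controls and 20.8, 52.1, 20.5 and 49.9 CPM in Rag2-/-, higher in Rag2-/- in 4 of 4 pairs. The ranges overlapped, and the log2 fold change was 0.75 (SE 0.52, adjusted p = 0.998, edgeR). With the littermate pair as a block, it was 0.87 (adjusted p = 0.998, edgeR). Ighm was 32.2 ± 18.2 CPM in controls and 22.5 ± 9.81 CPM in Rag2-/- oligodendrocytes (SD, n = 4 each), with a log2 fold change of -0.54 (SE 0.47). Of the 4 genes past the filter, 0 were called, as were 0% of the 13802 genes past the filter, and 0.0477% of all genes with a count. At an unadjusted p under 0.05, 0 of the 9 and 467 of the 13802 genes passed, and DESeq2 called 0 of the 9 and 201 genes in all.

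The difference in Igkc between the cell types was tested itself. The genotype effect in microglia minus the average effect over the remaining cell types was -8.51 on the log2 scale (SE 1.39, adjusted p = 0.00519), and Igkc was the 1 gene of the 9 called, where 0.00936% of genes past the filter were called. With the mouse as a block, the difference was -7.89 and was no longer called (adjusted p = 0.225, edgeR). Without Rag2-/- mouse 3, whose OPC library held 10 counts, it was -7.03 and not called. No OPC library of either genotype then held a count of Igkc, so that fit could not decide the difference.

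The segments of the immunoglobulin genes were examined in the same tables, to see which of them were counted beside the constant regions. In control microglia, 60 counts fell on 14 kappa V segments, with no segment above 11 counts (Igkv3-1), and 54 on 11 heavy chain V segments, with no segment above 13 (Ighv1-82). In Rag2-/- microglia, there were 1 and 0 counts on V segments. Heavy chain J segments had 255 counts in control and 317 in Rag2-/- microglia, of which Ighj1 took 69.0% and 70.3%. Ighj1 had 10, 26, 24, 35, 20 and 61 counts in controls 1 to 6 and 27, 33, 42, 26, 60 and 35 in Rag2-/- mice 1 to 6. All 4 heavy chain J segments were higher in microglia than in the other cell types in both genotypes. Among all genes with a count, 19.8% were higher in controls and 20.4% in Rag2-/-, and among those past the filter 31.6% and 31.9%. Only Ighj1 passed the filter, with differences of 4.25 (SE 0.71) in controls and 4.12 (SE 0.69) in Rag2-/-. Each of the other J segments had 0 counts in at least 1 other group of each genotype. Rag2-/- microglia thus held reads of Ighm and of the J segments but, apart from 1 count, of no V segment.

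In oligodendrocytes most V counts lay on 1 segment of each class when the libraries were summed. Igkv16-104 had 281 of 395 kappa V counts in controls (71.1%) and 688 of 728 in Rag2-/- (94.5%). Its counts were 42, 88, 108 and 43 in controls 1, 3, 5 and 6 and 26, 127, 184 and 351 in Rag2-/- mice 1, 3, 5 and 6, and it took 36.8% to 98.9% of the kappa V counts of a library (median 90.4%, n = 8). In control 6, Igkv4-50 came first with 49 of 117 counts, and it had 0 in the other 7 oligodendrocyte libraries. In Rag2-/- mouse 1, Igkv3-12 had 18 of 44. Ighv2-2 had 19 of 23 heavy chain V counts in controls (82.6%) and 44 of 46 in Rag2-/- (95.7%), although 53.3% of its windows of 50 bases have a copy elsewhere in the genome. Its counts were 0, 2, 0 and 17 in controls 1, 3, 5 and 6 and 8, 1, 8 and 27 in Rag2-/- mice 1, 3, 5 and 6. Without control 6 it had 2 of 6 heavy chain V counts in controls (33.3%). Igkv16-104 was picked as the segment with the most kappa V counts in these oligodendrocyte libraries, so the choice itself favoured a high level there. Its mean level in oligodendrocytes was at least 20.6-fold higher in controls and 50.9-fold higher in Rag2-/- than 3 counts per library of the other cell types would be. The ratio of Ighg3 to Igkc counts in the 8 libraries was 0.902 to 2.56 (median 1.33). The hybridoma antibody was used for 1 cell type, so its part in these counts and that of the oligodendrocytes cannot be told apart.

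**Figure D5:**
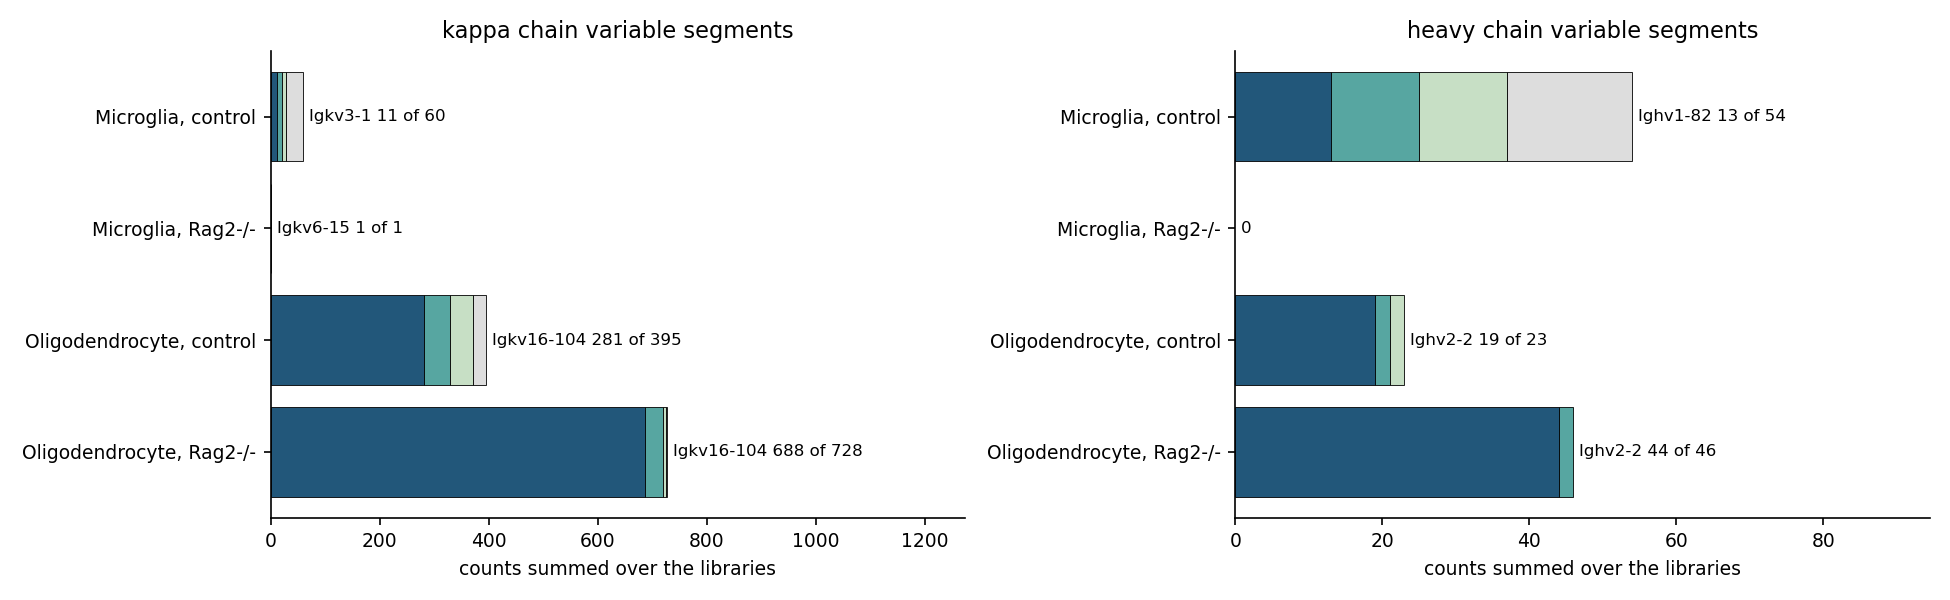
Counts on kappa (left) and heavy chain (right) V segments, summed over the libraries of a group, with the 3 segments with the most counts in colours and the others in grey. In oligodendrocytes of both genotypes 1 segment takes most of each bar, in control microglia no segment does, and Rag2-/- microglia have 1 and 0 counts.

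The ends of these segments are shown because they are where RAG1 and RAG2 cut and where a joined gene would part from the germline sequence. The sequences are those of GRCm39 and run 5′ to 3′ on the strand of the gene. For the V segments, they give the last 100 bases of the segment and the recombination signal after it, with the heptamer and the nonamer of the signal in capitals. For Ighj1, the segment is the last 53 bases and the signal comes before it, also in capitals. They lie at chr6:68402957-68403084 (plus strand, Igkv16-104), chr12:113551848-113551986 (minus strand, Ighv2-2) and chr12:113393401-113393491 (minus strand, Ighj1).
Igkv16-104: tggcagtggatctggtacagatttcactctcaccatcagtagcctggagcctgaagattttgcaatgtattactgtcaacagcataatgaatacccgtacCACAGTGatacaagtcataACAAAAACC
Ighv2-2: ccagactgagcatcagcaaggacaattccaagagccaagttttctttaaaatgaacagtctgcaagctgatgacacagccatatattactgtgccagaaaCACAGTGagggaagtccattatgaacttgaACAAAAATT
Ighj1: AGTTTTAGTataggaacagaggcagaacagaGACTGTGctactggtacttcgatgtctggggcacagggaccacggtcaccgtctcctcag

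The V segments were searched, on their own strand and from 0 to 3 bases after their annotated end, for the heptamer CACAGTG. It was found at 87 of 100 annotated functional kappa V segments (87%) and at 82 of 113 heavy chain ones (72.6%), so holding it sets neither segment apart. The heptamer with the nonamer ACAAAAACC after a spacer of 12 bases, as at Igkv16-104, was found at 32 of the kappa segments (32%). With a spacer of 23 bases, it was found at 2 of the heavy chain segments (1.77%), not including Ighv2-2, whose nonamer has 2 mismatches to it. The Ighj1 signal has 1 mismatch to the heptamer CACTGTG and 2 to the nonamer GGTTTTTGT, which are the same elements read from the other side. The counts do not say whether a read pair ran across a segment's end, so they do not separate joined from unjoined segments.

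The other constant regions had few counts beside those of the 9 genes. Ighm took 93.9% of all immunoglobulin constant region counts in control and 96.0% in Rag2-/- microglia. In oligodendrocytes, Ighm took 41.6% and Ighg3 27.4% in controls, and Ighg3 43.3% and Ighm 27.8% in Rag2-/-. Of 9 further constant regions, of which 3 passed the filter, 4 were higher in oligodendrocytes than in the other cell types in controls, where 13.2% of all genes with a count were higher, and 4 in Rag2-/-, where 12.4% were. Ighg2b, an IgG2 class, was called in both (4.73 and 7.17). OPCs of both genotypes held 0 counts of it, so the size of these differences is uncertain. Ighg2b had 11, 0, 2 and 45 counts in the controls and 6, 35, 22 and 37 counts in Rag2-/-, and 7.26% of its windows have a copy elsewhere. In control microglia, 4 of the 9 were higher, where 31.6% of the genes past the filter and 19.8% of all genes with a count were. Of these, only Ighg2b passed the filter, and Ighg1 and Igha had all or nearly all their counts in 1 library each. Lower was 1 (Ighg2c, -5.74), with 0 counts in control microglia, where 32.9% of the genes past the filter were lower. In Rag2-/- microglia, 0 were called. Ighg1 had 143 counts in the microglia library of control 2, and it was the 1 further constant region called between the genotypes in microglia (-5.47, adjusted p = 0.00023), on that library. Igha, the constant region of IgA, had 49 counts in the microglia library of control 5, and Iglc1, a lambda light chain constant region, had 64 and 8 counts in the oligodendrocyte libraries of Rag2-/- mice 3 and 6.

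Genes of plasma cells and of the B cell transcription programme were spread over both cell types. Pou2af1, a B cell coactivator of immunoglobulin promoters, had 12, 114, 77 and 136 counts in control and 14, 59, 191 and 90 counts in Rag2-/- oligodendrocytes. It was higher than in the other cell types by 6.499 (SE 0.80) and 6.88 (SE 0.84). Control OPCs held 0 counts of it, so the size of its difference in controls is uncertain. Jchain, which links secreted IgM and IgA, had 16, 14, 24 and 33 counts in the controls and 2, 22, 36 and 2 in Rag2-/-, higher by 4.37 (SE 0.90) and 4.71 (SE 0.93). Of 9 plasma cell genes, 4 were higher in microglia in both genotypes (Prdm1, Irf4, Xbp1 and Tnfrsf17), where 31.6% and 31.9% of the genes past the filter were higher. In oligodendrocytes, 2 were higher and 1 (Xbp1) lower in controls, and 1 was higher and 1 (Xbp1) lower in Rag2-/-. Of the genes past the filter, 20.9% and 20.8% were higher there and 15.5% and 18.8% lower. Prdm1, a repressor also active in myeloid cells, differed by 5.68 (SE 0.57) in controls and 5.79 (SE 0.58) in Rag2-/-. Of the 18 surface and signalling genes, 14 were higher and 1 (Cr2) lower in control microglia, where 31.6% of the genes past the filter and 19.8% of all genes with a count were higher. Their median log2 difference was 4.44, beside -0.07 over all genes past the filter. In Rag2-/- microglia, 11 were higher and 1 (Cr2) lower, where 31.9% and 20.4% were higher, with a median of 4.47 beside -0.05.

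Among 8 B lineage transcription factors, 3 were higher and 2 lower in control microglia, and 2 were higher and 3 lower in Rag2-/- microglia. Among the genes past the filter, 31.6% and 32.9% were higher and lower in control microglia and 31.9% and 32.3% in Rag2-/- microglia, so the counts of this small list lay near those over all genes. Pou2f2, an octamer factor of B and myeloid cells, was higher by 5.17 (SE 0.31) and 5.42 (SE 0.32). Pou2af1 was lower in Rag2-/- microglia than the average of the other Rag2-/- cell types (-5.05, SE 1.35). Among these it was by far highest in oligodendrocytes, at a mean of 7.62 CPM, against 0.713 in astrocytes, 0.0619 in OPCs and 0.0136 CPM in microglia. Between the genotypes, Pou2af1 had 50 counts in control microglia, in 4 of 6 libraries, and 1 in Rag2-/- microglia. Of 10 genes of B cell precursors, 8 had counts. In control microglia, 2 were higher and 1 (Dntt) lower, with a median log2 difference over the list of 0.74, and in Rag2-/- microglia 3 were higher and 0 lower, with a median of -0.04. The shares over all genes are those just given. Il7r, the receptor for the growth factor IL-7, was higher in microglia by 6.08 (SE 0.75) in controls and 5.48 (SE 0.73) in Rag2-/-, and so was Cd93 (3.20, SE 0.42, and 3.19, SE 0.42). Igll1 and Rag1 had 0 counts in microglia of both genotypes, and Vpreb3, with 7 counts in control microglia, had 0 in Rag2-/- microglia. Vpreb1 and Vpreb2 were not analysed here.

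The genes whose levels were most like those of each gene were listed over all 43 libraries, as Pearson's r of log2(CPM + 1). This is a description over libraries that share mice, cell types and depth. For Ighm, they included Tyrobp (0.984), a signalling adaptor of microglia, and C1qa (0.981), a complement component that microglia make. For Ighd they were Gm15889 (0.978), Gm48786 (0.973) and Slamf1 (0.969), for Cd22 Ecscr (0.927), Naip6 (0.927) and Cd300c2 (0.923), and for Cd79b H2-M2 (0.937), Styxl2 (0.934) and Cd209f (0.934). For Igkc, they were Gm46223 (0.859), Mir7039 (0.855) and Ighg3 (0.847). Within the 12 microglia libraries, the most like were Eif2b3 for Ighm (0.925), Ccdc125 for Igkc (0.944), Oas3 for Ighd (0.906), Txlna for Cd22 (0.902) and 4933433G19Rik for Cd79b (0.915). These are the highest of 22003 genes over few libraries.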

How the data were processed

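The authors amplified cDNA with the Ovation V2 system, sequenced paired reads of 50 bases, aligned them with STAR 2.7.8a to GRCm39 and counted them per gene with HTSeq. The deposited values are raw counts per gene. The counting mode and the use of strand are not given in the sources used here. Lines for read pairs on no gene (33.5% to 52.0% of pairs) entered neither library sizes nor tests. CPM is the count per 1000000 gene counts of a library.

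Samples were grouped by cell type and genotype as the labels give them. Each cell type was fitted in edgeR 4.0.16 (R 4.3.3) with sex and genotype, TMM scaling and filterByExpr (minimum count 10, minimum total 15). A gene that did not pass the filter took its value from the same fit without it. A joint fit of 8 groups and sex compared cell types. The threshold was an adjusted p of 0.05. The study used DESeq2, which was run here as an alternative (1.42.0). Other alternatives were other scaling, filters, no sex term, littermate or mouse blocks, Rag2+/- controls only, and each library or mouse left out. The tests were tested on simulated data with 200 changed genes. The SE given with an edgeR value is the size of the log2 fold change divided by the square root of the F statistic of its test. It is not a standard error of the fit, and values above 10 were dropped.

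The labels number littermate pairs and the study states them. Over genes, the mean correlation between pair mates, each as its deviation from the group mean, was 0.0904 in microglia, 0.110 in oligodendrocytes, 0.0987 in OPCs and 0.143 in astrocytes, against -0.0184, -0.0364, -0.0195 and -0.0276 for other libraries. As each library of a cell type came from another mouse, p-values measure the spread between mice.

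Positions, biotypes and overlaps came from GENCODE M39, which held 54749 of 55416 gene identifiers. Genes named are the 9, listed genes past the threshold or with the most counts, and segments with the most counts of their class. Values of some single genes are not reported here. Genes and lists were chosen with earlier results of these data known. Python 3.11.15, numpy 2.4.6, pandas 2.3.3 and matplotlib 3.10.9 were used.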

Additional observations from a re-analysis of the deposited data

Results flagged for a closer look

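In 43 groups of a gene and a condition with counts, 14 libraries lay far from the rest of their group by Dixon's test at the 95% level, where chance alone gives about 1 in 20 groups. In 11 of the 14, every other library of the group had 3 counts or fewer, so these are single libraries with a few counts of a gene that is otherwise near 0.

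In microglia, Pax5 in control 5 was the 1 such value (1.49 CPM, 12 counts). In oligodendrocytes, they were Cd79a in control 6 (1.25 CPM, 15 counts), Cd79b in control 3 (1.22 CPM, 13 counts), Ms4a1 in control 3 (1.69 CPM, 18 counts) and in Rag2-/- mouse 6 (0.441 CPM, 6 counts), Ighd in Rag2-/- mouse 3 (1.05 CPM, 12 counts) and Igkc in Rag2-/- mouse 1, which was low (8.10 CPM, 121 counts). In OPCs, they were Cd79a in control 3 (0.574 CPM, 6 counts), Cd79b in Rag2-/- mouse 3 (0.499 CPM, 7 counts), Ighd in control 1 (3.90 CPM, 48 counts) and Igkc in Rag2-/- mouse 3 (0.714 CPM, 10 counts). In astrocytes, they were Cd79a in Rag2-/- mouse 3 (0.603 CPM, 7 counts), Cd79b in control 1 (1.10 CPM, 10 counts) and Cd22 in Rag2-/- mouse 4 (0.644 CPM, 6 counts).

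The genotype effect on Igkc differed between microglia and the other cell types by -8.51 on the log2 scale (SE 1.39, adjusted p = 0.00519, edgeR), a difference that was not called with the mouse as a block.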

How the results depend on the processing

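For the single genes, 1271 of 1305 values under an alternative kept their side of the threshold, 21 were no longer called and 11 became called. In 2 more, a gene that was called changed sign. Both were of Ms4a1 in oligodendrocytes against the other cell types, which ranged from -1.20 (without control 3) to 5.60 in controls and from -0.65 (without mouse 6) to 3.94 in Rag2-/- when a mouse was left out. A change of sign between values that were both not called counts among the 1271, as for Igkc between the genotypes in oligodendrocytes. The call of Igkc in microglia was kept in all 19 alternatives, as were those of Igkc and Ighg3 in oligodendrocytes in 16 each.

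The number of genes called between the genotypes was 1 in microglia, 0 in oligodendrocytes and 1 each in OPCs and astrocytes. In microglia, it was 3 with a mean count of at least 1, 3 with DESeq2, 9 with no filter and 1 to 2 with a library left out. In oligodendrocytes, it was 1 with a mean count of at least 1, 201 with DESeq2 and 14 with no filter. It was 5 with DESeq2 and 90 with no filter in OPCs, and 30 with no filter in astrocytes. For the difference in genotype effect, 2 genes were called, 44 with DESeq2, 60 with no filter and 1 to 3 with a mouse left out. With the mouse as a replicate block, 1 gene was called and 0 of the 9, and without a mouse 0 to 1 of the 9. With that block, 2 of the 9 were called in control oligodendrocytes, not 4. The causes were not tested.

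Some calls appeared under an alternative. Ighg3 was lower in control microglia than in the other cell types with DESeq2 (-3.20, adjusted p = 0.00326). Ighm was higher in control oligodendrocytes without control 1 (1.03, adjusted p = 0.0134) or with no filter (0.64, adjusted p = 0.00482). A littermate or mouse block changed 5 of 77 calls of single genes, all given in the report. CPM relative to counts without mitochondrial genes raised the oligodendrocyte levels, that of Igkc to 39.6 in control and 44.4 CPM in Rag2-/-. The lower bounds and V segment shares without 1 library, and the Ighm shares without mitochondrial genes, were chosen after the data were seen. Genes with fewer than 3 counts per library cannot be told from 0 at this depth.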
